A study of Homo sapiens with 9 samples.

Results

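Genes named for drug and toxicant metabolism were followed in EA.hy926 cells, an established human hybrid line made by fusing umbilical vein endothelial cells with the A549 lung carcinoma line. Members were taken by symbol: cytochromes P450, aldehyde dehydrogenases, aldo-keto reductases, glutathione transferases, ABC proteins, glucuronosyl- and sulfotransferases, carboxylesterases, the AADAC esterases, quinone reductases and epoxide hydrolases. Of 14884 genes with a named probe set, 40 matched, and 28 of these reached the floor for testing, a log2 intensity of 5 on at least 3 of the 9 arrays, among 12155 tested genes. These 28 were 18 glutathione transferases, 7 esterases and epoxide hydrolases, 2 aldehyde dehydrogenase symbols and 1 ABC symbol. Cytochromes P450, aldo-keto reductases, quinone reductases and sulfotransferases were not analysed here, and neither was any protein-coding ABC transporter, so the set stands for glutathione transferases and AADAC-type esterases rather than for xenobiotic metabolism as a whole. By biotype in the RefSeq gene table, 21 of the 28 were protein coding, 6 were pseudogenes (AADACP1, CES1P1, CES1P2, GSTM2P1, GSTT2 and ABCA15P) and 1 was a long noncoding RNA (ALDH1L1-AS2).

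Exposed cells received silver nanoparticles of 5 nm or of 100 nm for 6 h at about the LD50 of each, and the controls were unexposed cells of the same line. Each of the 3 groups had 3 arrays, numbered 1 to 3. Mass doses were not stated, so particle size and dose cannot be told apart. The labels do not say whether arrays came from separate cultures; a p-value here therefore reflects the spread among these samples alone, and that spread may be technical.

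Enzymes of this kind act in sequence. Esterases, dehydrogenases and epoxide hydrolases expose or create a reactive group, glutathione transferases join glutathione to electrophiles, and ABC transporters export the conjugates. Many of these genes are switched on by NRF2, a transcription factor that its partner KEAP1 marks for degradation, and in A549 cells a KEAP1 defect is known to leave NRF2 active. Glutathione itself is a thiol and binds silver ions.

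Upstream sequence is shown for AADAC, GSTK1 and GSTA4, among the members whose differences with 5 nm particles had 1 sign in every replicate number. It is also shown for GSTO1 and GSTP1, among those whose windows held antioxidant response letters. AADACP1 of the first kind and GSTM1 of the second are not shown. Each run is the 250 bases before the RefSeq start on GRCh38.p14, 5′ to 3′ on the strand of the gene. Capitals mark matches, on either strand, to the antioxidant response core TGACNNNGC (the NRF2 motif), the metal response core TGCACNC or TGCGCNC, the dioxin response core GCGTG and the heat shock core GAANNTTC.
AADAC (chr3:151813866-151814115, plus strand): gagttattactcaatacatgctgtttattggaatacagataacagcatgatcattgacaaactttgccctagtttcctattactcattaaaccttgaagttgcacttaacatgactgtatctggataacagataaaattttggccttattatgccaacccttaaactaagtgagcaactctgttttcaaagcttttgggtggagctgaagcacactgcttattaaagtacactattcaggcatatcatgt
GSTK1 (chr7:143263191-143263440, plus strand): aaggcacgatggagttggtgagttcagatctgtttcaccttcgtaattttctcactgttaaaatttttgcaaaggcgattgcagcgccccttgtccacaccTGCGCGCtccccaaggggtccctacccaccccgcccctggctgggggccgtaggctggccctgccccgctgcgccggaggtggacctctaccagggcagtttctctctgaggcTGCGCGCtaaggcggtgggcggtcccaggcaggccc
GSTA4 (chr6:52995285-52995534, minus strand): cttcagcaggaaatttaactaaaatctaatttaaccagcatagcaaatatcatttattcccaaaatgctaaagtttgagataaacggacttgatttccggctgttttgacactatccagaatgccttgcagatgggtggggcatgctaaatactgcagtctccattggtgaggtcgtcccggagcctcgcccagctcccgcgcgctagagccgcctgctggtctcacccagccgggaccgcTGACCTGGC
GSTO1 (chr10:104254642-104254891, plus strand): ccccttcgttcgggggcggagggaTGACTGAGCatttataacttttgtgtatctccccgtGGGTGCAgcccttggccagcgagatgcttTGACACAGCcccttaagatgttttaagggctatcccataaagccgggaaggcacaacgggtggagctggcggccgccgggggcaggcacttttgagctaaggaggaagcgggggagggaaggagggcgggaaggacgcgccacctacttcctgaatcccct
GSTP1 (chr11:67583562-67583811, plus strand): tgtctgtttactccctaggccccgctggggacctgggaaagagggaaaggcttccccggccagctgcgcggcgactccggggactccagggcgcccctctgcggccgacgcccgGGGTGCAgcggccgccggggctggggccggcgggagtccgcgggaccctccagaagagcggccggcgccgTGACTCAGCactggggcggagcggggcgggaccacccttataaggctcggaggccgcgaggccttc

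The AADAC window held none of these letters. GSTK1 had TGCGCGC at 2 places, GSTA4 had TGACCTGGC directly before the start, GSTO1 had TGACTGAGC, TGACACAGC and a metal response core, and GSTP1 had TGACTCAGC and a metal response core. Of the 28 members, 17 had a promoter entry, with 20 entries in all. The antioxidant core was in 4 of these 20 windows (GSTA4, GSTM1, GSTO1 and GSTP1), against 10.9% of all 35116 windows of this length. The metal response core was in 7 of 20, against 24.8% of all windows, the dioxin response core in 4 of 20, against 32.2%, and the heat shock core in 1 of 20, against 5.78%. A match is a run of letters and not a shown binding site.

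At baseline the esterase AADAC and its pseudogene neighbour were bright. AADAC encodes arylacetamide deacetylase, an esterase anchored in the endoplasmic reticulum that is best known from liver and gut, where it hydrolyses drugs. Its control arrays read 10.18, 9.41 and 9.64 in replicates 1, 2 and 3, and those of AADACP1 read 10.01, 9.89 and 9.93. Of 9 named hepatocyte markers, 7 passed the floor. On the control arrays TTR read 6.59, 5.69 and 6.07, APOA1 read 6.26, 5.91 and 6.17, and APOA2 read 6.14, 5.75 and 6.07. The rest of the tested ones, APOB, AHSG, HP and TF, each fell under the floor of 5 on some control array. In control replicate 2 APOB read 4.56, AHSG 4.81 and HP 3.88, and in control replicate 3 TF read 4.55. Albumin (ALB) and fibrinogen beta (FGB) stayed under the floor on all 9 arrays. The mean over the 9 named hepatocyte markers ranged from 4.90 to 5.46 on the 5 nm arrays. It ranged from 4.88 to 5.42 on the 100 nm arrays and 4.89 to 5.43 on the control arrays. The label of endothelial cells was checked against 15 marker genes, of which 11 had a named probe set and 10 were tested. ENG read 12.51, 12.24 and 12.45 on the control arrays, PECAM1 10.21, 9.90 and 9.73, and VWF 6.07, 6.03 and 5.84. EMCN, named but not tested, read 3.41, 2.86 and 3.49 there. Among lung epithelial markers, KRT18 read 11.38, 10.76 and 10.42 on the control arrays, while EPCAM read 5.89, 4.95 and 4.61. On the same arrays KRT7 read 9.64, 8.66 and 8.65, and KRT8 read 8.06, 7.04 and 7.18. The mean over the 11 named endothelial markers ranged from 8.38 to 8.82 on the 5 nm arrays. It ranged from 8.57 to 8.92 on the 100 nm arrays and 8.58 to 8.94 on the control arrays. With 5 nm particles 4 of the 10 tested were lower in all 3 numbers, against 13.4% of all tested genes. Of 11 tested lung epithelial markers 2 were, KRT7 and KRT8, near that share. The mean over the 13 named ones ranged from 5.89 to 6.59 on the 5 nm arrays. It ranged from 5.98 to 6.65 on the 100 nm arrays and 5.99 to 6.65 on the control arrays. The part of these marker differences in the members' differences was not tested. Neither parent line was arrayed, so which parent brought a member's level cannot be told apart.

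Among glutathione transferases, those with a control mean of 8 or more came from several classes. GSTP1, the pi-class enzyme that is abundant in lung and in many carcinomas, averaged 9.39 ± 0.50 on control arrays (SD, n = 3). GSTK1, the kappa-class enzyme of mitochondria and peroxisomes, averaged 8.88 ± 0.34. GSTO1, an omega-class enzyme that reduces dehydroascorbate, averaged 8.68 ± 0.47. The microsomal MGST1, a membrane enzyme with transferase and peroxidase activity, averaged 8.50 ± 0.22, and the theta-class GSTT2B and GSTT2 averaged 8.36 ± 0.28 and 8.01 ± 0.39. Mu-class members were dim, with control means of 4.95 to 5.52, and the alpha-class GSTA4, which handles the lipid peroxidation product 4-hydroxynonenal, averaged 7.81 ± 0.68. In all, 8 members had a control mean of 8 or more, 6 lay between 6 and 8, and 14 lay under 6. Probe sets differ in how brightly they bind, so these intensities do not rank RNA amounts between genes.

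**Figure D1:**
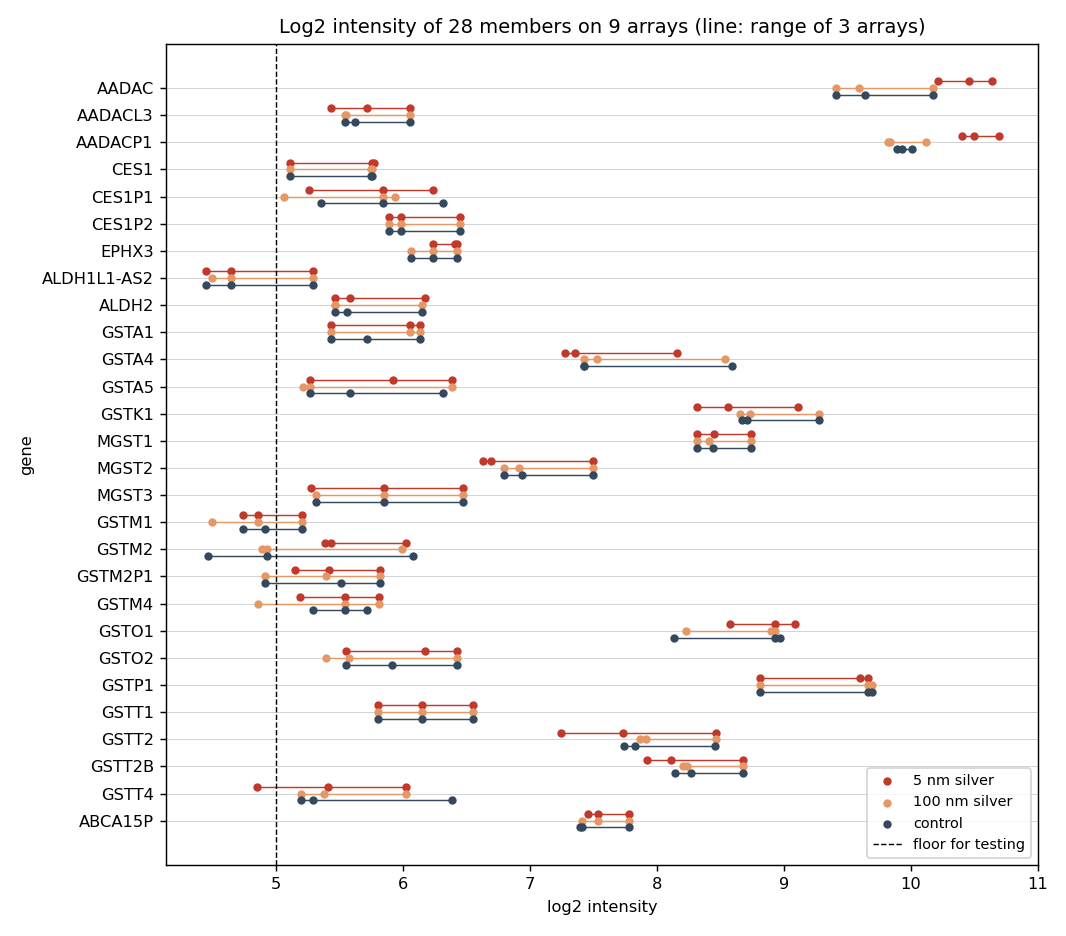
Log2 intensity of the 28 members on each of the 9 arrays, with 5 nm silver above 100 nm silver above control for each gene, lines for the range of 3 arrays and a dashed line at the floor of 5. AADAC and AADACP1 are the members whose 5 nm arrays all lie above all control arrays.

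The lower edge of the set was soft. ALDH1L1-AS2 and GSTM1 passed with 3 of 9 arrays at the floor, on which GSTM1 read 5.20 in each replicate 1 array. CES4A had 1 array at the floor, a 5 nm array at 5.15, and CES5A reached 4.73 at most; neither was tested. Of the 12 members that did not pass, 11 reached the floor on no array, among them GSTA2, GSTA3, GSTM3, GSTM5, EPHX4 and the ceramide galactosyltransferase UGT8. Of the members tested, 22 reached the floor on all 9 arrays.

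Arrays of the same number were closer to each other than arrays of the same group. The range over the 3 control arrays was 0.12 to 1.62 among members, with a median of 0.71, and 23 of 28 members were brightest on control replicate 1, as were 82% of all tested genes. By contrast, 46.4% of the members' differences from the control of the same number were exactly 0, against 54.2% over all tested genes. Between 39.8% and 65.9% of tested genes had equal values on a pair of arrays of 1 number, and at most 0.0165% on a pair of different numbers. Which arrays were normalized together is not stated, and its part in these zeros was not tested. Differences are therefore given within each number, beside a test over all 9 arrays.

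The first question was whether members changed with 5 nm particles. AADAC read 10.46, 10.64 and 10.21 on the 5 nm arrays in replicates 1, 2 and 3, against 10.18, 9.41 and 9.64 on the control arrays. All 3 exposed arrays lay above all 3 control arrays. Within numbers it was higher by 0.28, 1.23 and 0.57, a mean log2 difference of 0.70 (95% interval 0.08 to 1.31), or 1.62-fold. AADACP1, the transcribed pseudogene that lies next to AADAC in the RefSeq table, read 10.40, 10.69 and 10.50 on the 5 nm arrays, against 10.01, 9.89 and 9.93 on the control arrays. Its groups did not overlap either, and its differences of 0.40, 0.80 and 0.57 averaged 0.59 (95% interval 0.16 to 1.01), or 1.50-fold. A gene and its pseudogene copy may share probes, so the pair counts as 1 uncertain signal.

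Neither AADAC nor AADACP1 passed in limma over all tested genes. The adjusted p was 1 for both (limma, Benjamini-Hochberg), from unadjusted values of 0.0296 for AADAC and 0.012 for AADACP1. With the replicate number as a block the adjusted p was 0.272 for AADAC and 0.143 for AADACP1. Higher 5 nm values without overlap were found for 2 of 28 members, where 1.41% of all tested genes had them. Without the arrays of replicate 2, where its difference was largest, the mean for AADAC was 0.43. In bulk RNA, a change in the share of cells that express a gene and a change in RNA per cell cannot be told apart.

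The other esterases showed little. CES1, the main liver carboxylesterase, read 5.76, 5.11 and 5.77 on the 5 nm arrays and 5.76, 5.11 and 5.75 on the control arrays. The pseudogene CES1P2 had identical values in all groups of each number, and the pseudogene CES1P1 differed by -0.07, -0.09 and 0. EPHX3, an epoxide hydrolase that acts on fatty acid epoxides, differed by 0.35 in replicate 2 and by 0 in the others. AADACL3, a relative of AADAC, differed by 0, -0.11 and 0.10. ALDH2, the mitochondrial enzyme that clears acetaldehyde, differed by 0.02, 0 and 0.03, and the ABC pseudogene ABCA15P by 0, 0.05 and 0.15.

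**Figure D2:**
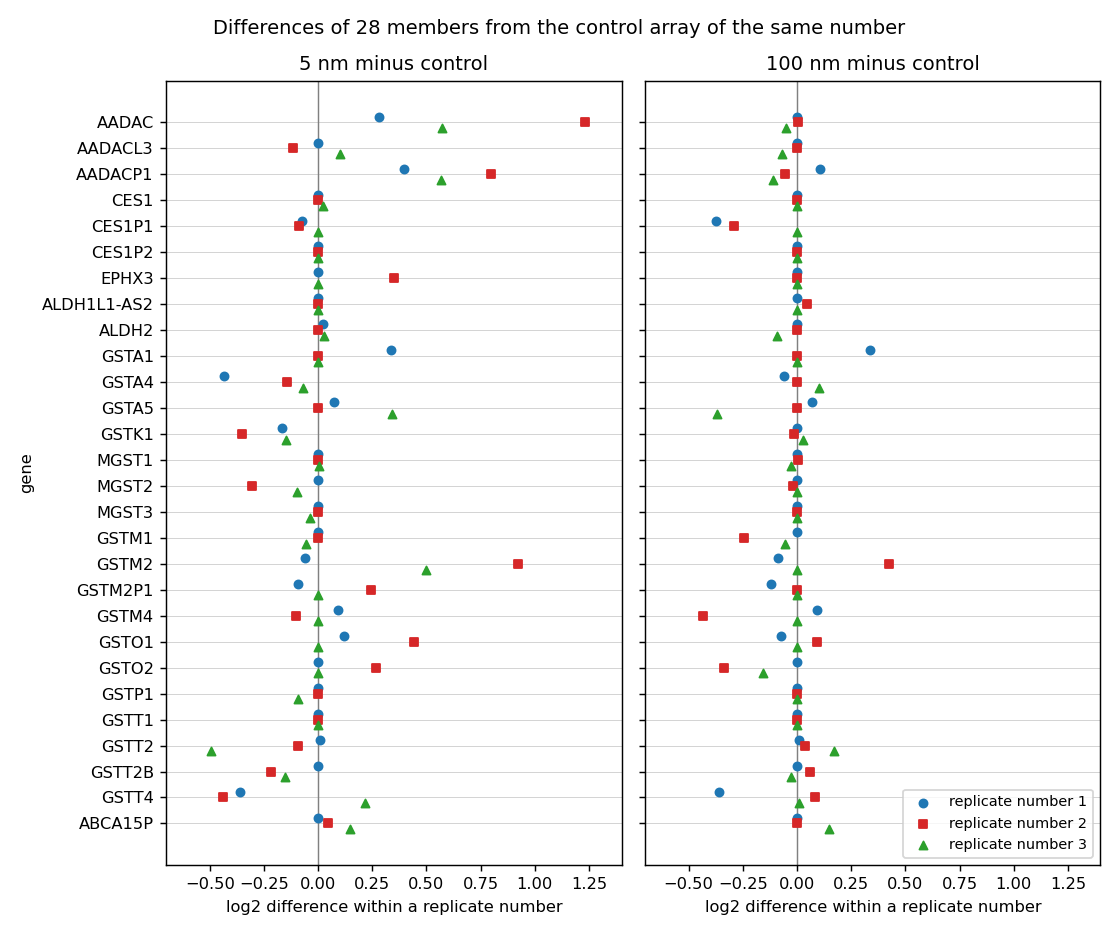
Log2 difference of each of the 28 members from the control array of the same replicate number, for 5 nm particles (left) and 100 nm particles (right), with a marker for each number. With 5 nm particles AADAC and AADACP1 lie right of 0 and GSTK1 and GSTA4 left of 0 in every number, and with 100 nm particles no point passes 0.5 in size.

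Among glutathione transferases the differences ran both ways. The mean difference was positive for 7 of 18, negative for 10 and 0 for GSTT1, with a family median of -0.01 against a median of 0 over all tested genes. GSTK1 read 9.11, 8.32 and 8.56 on the 5 nm arrays and 9.27, 8.67 and 8.71 on the control arrays. It was lower within each number, by -0.17, -0.35 and -0.15, although the groups overlapped because the numbers differed more than the exposures. The mean of -0.22 did not pass (adjusted p = 1 in limma, and 0.154 with the block). GSTK1 passed in 1 of the settings tried, the block fit without the 5 nm array of replicate 2 (-0.16, adjusted p = 0.0257 in limma), in which 2.68% of all tested genes passed and 1 of 28 members is near that share.

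GSTA4 read 8.16, 7.28 and 7.36 on the 5 nm arrays and 8.59, 7.42 and 7.43 on the control arrays, lower by -0.44, -0.14 and -0.07. The groups overlapped here too, and the mean of -0.22 had an adjusted p of 1 in limma (0.337 with the block). The other alpha-class members, GSTA1 and GSTA5, differed by 0.34, 0 and 0 and by 0.07, 0 and 0.34. Lower values in all 3 numbers were found for 2 of 28 members, GSTK1 and GSTA4, against 13.4% of all tested genes. Higher values in all 3 numbers were found for 2 of 28, AADAC and AADACP1, against 8.03%.

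The mu-class gene GSTM2 had the largest positive mean among transferases. It read 6.02, 5.39 and 5.43 on the 5 nm arrays and 6.08, 4.46 and 4.93 on the control arrays. Replicates 2 and 3 were higher, by 0.92 and 0.50, from control values under the floor, and replicate 1 was lower, by -0.06. GSTM2 passed the floor only through the exposed group: 3 of its 5 arrays at the floor were 5 nm arrays, so its difference is a description and supports nothing. Its mean of 0.45 (95% interval -0.50 to 1.41) did not pass (adjusted p = 1 in limma), and was 0.22 without replicate 2 and 0.71 without replicate 1. The related GSTM1, GSTM4 and GSTM2P1 had means of -0.02, 0.00 and 0.05. Mu-class genes are close copies of one another, so which of them a probe set read is uncertain.

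The omega-class GSTO1 read 9.09, 8.58 and 8.93 on the 5 nm arrays and 8.97, 8.13 and 8.93 on the control arrays. It was higher in replicates 1 and 2, by 0.12 and 0.44, and equal in replicate 3. Its mean of 0.19 did not pass (adjusted p = 1 in limma). GSTO2, the other omega-class gene, differed by 0.27 in replicate 2 and by 0 elsewhere.

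Theta-class genes were lower or equal on average. GSTT2 differed by 0.01, -0.09 and -0.49, GSTT2B by 0, -0.22 and -0.15, and GSTT4 by -0.36, -0.44 and 0.22. GSTT2 and GSTT2B are near-identical duplicates, so their probe sets may read the same RNA. GSTT1 had identical values in all groups of each number, as CES1P2 did. Equal values in all 3 numbers for 5 nm and control were found for 3 of 28 members, these and ALDH1L1-AS2, against 19.0% of all tested genes. Microsomal MGST2, which can make the inflammatory lipid leukotriene C4, differed by 0, -0.31 and -0.10, while MGST1 and MGST3 had means of 0.00 and -0.01.

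GSTP1, the transferase with the TGACTCAGC letters shown above, read 9.66, 8.81 and 9.60 on the 5 nm arrays and 9.66, 8.81 and 9.69 on the control arrays. It was equal in 2 of 3 numbers and differed by -0.09 in the third. Its 95% interval in the fit over 9 arrays was -0.80 to 0.74, which holds the offsets between numbers, and -0.09 to 0.03 with the block.

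**Figure D3:**
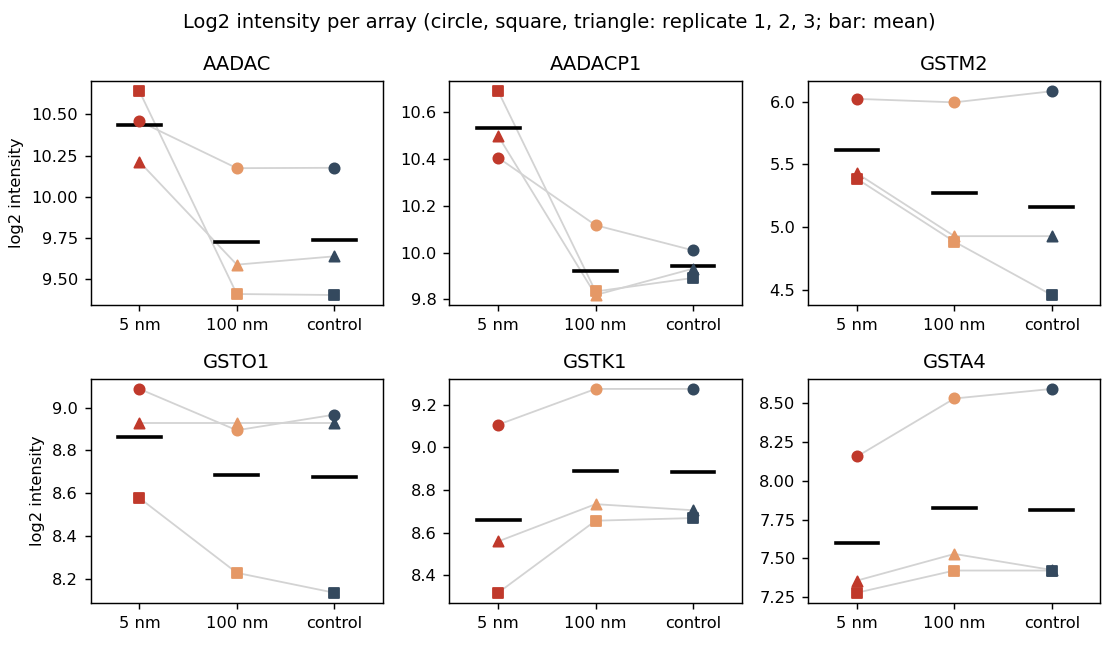
Log2 intensity per array of AADAC, AADACP1, GSTM2, GSTO1, GSTK1 and GSTA4, with 5 nm on the left, then 100 nm and control, grey lines joining arrays of 1 number and bars for the means; each panel has its own axis range. The 5 nm arrays of AADAC and AADACP1 stand above the other 6, and the 5 nm array of GSTK1 and of GSTA4 is the lowest of its number.

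Over all members, 0 of 28 passed in limma with Benjamini-Hochberg adjustment for 5 nm particles, where 0.074% of all tested genes did (9 genes). With the replicate block 0 of 28 passed, against 0.65% (79 genes). At an unadjusted p under 0.05, 2 of 28 passed without the block, AADAC and AADACP1, against 1.65% of all tested genes, and 4 of 28 passed with it, those and GSTK1 and GSTA4, against 14.3%. The median difference of the 28 was 0, as over all tested genes. The lower and upper quartiles were -0.04 and 0.09 for the members and -0.07 and 0.03 for all tested genes. Of the 25 members with any difference other than 0, 14 (56%) had the largest in replicate 2, as did 55.7% of all tested genes.

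Genes of the NRF2 pathway outside the members were read from the same arrays. Of 22 regulators and targets listed, 13 were tested, and 11 had positive means, with a median of 0.41. In all 3 numbers 8 were higher, against 8.03% of all tested genes. The 2 with negative means were KEAP1 (-0.14) and TKT (-0.005), and PGD, TXN and PRDX1 had means of 0.04, 0.05 and 0.09. HMOX1, the inducible heme oxygenase, read 11.57, 12.16 and 11.90 on the 5 nm arrays and 7.99, 8.10 and 8.72 on the control arrays. It was the 1 gene of the list past the threshold (adjusted p = 0.000704 in limma), where 0.074% of all tested genes passed. With the block 3 passed, the thioredoxin reductase TXNRD1 and the glutathione reductase GSR beside HMOX1, against 0.65% of all tested genes. NFE2L2, which encodes NRF2, differed by 0.36, 0.89 and 0.27, and SRXN1, which restores oxidised peroxiredoxins, by 0.88, 1.39 and 0.76, neither passing (adjusted p = 1 each in limma). A list of NRF2 targets in the member families held 19 genes, of which 4 had a named probe set and 3 were tested. These were CES1, GSTP1 and MGST1, and their largest mean difference in size was -0.03. Listed genes without a named probe set were not analysed here, so these values do not stand for the whole list.

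**Figure D4:**
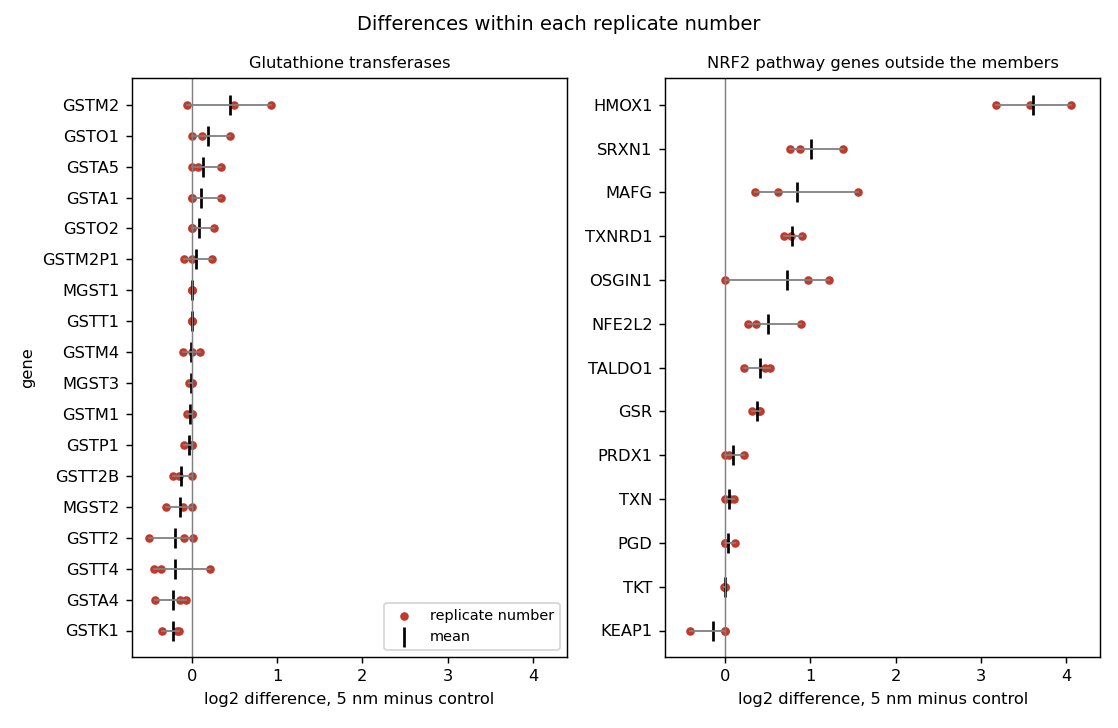
Log2 difference, 5 nm minus control, within each replicate number (points, with a line for the range and a tick for the mean) for 18 glutathione transferases (left) and 13 NRF2 pathway genes outside the members (right), on 1 scale. The transferases lie within 1 of 0, and HMOX1 lies above 3 in every number.

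Genes listed for glutathione supply and turnover did not move one way. Of 10 listed, 5 had a named probe set, and the rest were not analysed here. Of 5 tested, GSR had a mean of 0.37 and OPLAH of 0.05 with 5 nm particles. GGCT, GSS and GGT5 were lower in all 3 numbers, 3 of 5, against 13.4% of all tested genes. GGT5, a glutathione-cleaving enzyme, differed by -0.18, -0.29 and -0.20, and GSS, glutathione synthetase, by -0.07, -0.05 and -0.12. None passed without the block, where 0.074% of all tested genes did. With the block GSR passed (adjusted p = 0.0327 in limma), 1 of 5, against 0.65% of all tested genes.

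The second question was whether members changed with 100 nm particles. After adjustment 0 of 28 members passed in limma in either fit, where 0.0% of all tested genes did. At an unadjusted p under 0.05 there were 0 members without the block, of 0 genes in all (0.0%), and 1 with it, CES1P1, against 0.271% of all tested genes. The controls are those of the 5 nm comparison. AADAC read 10.17, 9.41 and 9.59 on the 100 nm arrays, against 10.18, 9.41 and 9.64 on the control arrays, with a mean difference of -0.02 (95% interval -0.63 to 0.60). AADACP1 differed by 0.11, -0.06 and -0.11, and GSTK1 by 0.00, -0.01 and 0.03. CES1P1 had the most negative mean, -0.22, from differences of -0.38, -0.29 and 0 (adjusted p = 1 in limma). GSTM4 and GSTM2 differed in replicate 2 by -0.43 and 0.42. GSTT2 was higher in all 3 numbers, by 0.01, 0.04 and 0.17, and no other member had 1 sign throughout, against 1.25% of all tested genes higher in all 3. Equal values in all 3 numbers were found for 6 of 28, against 30.3% of all tested genes. The 100 nm and control arrays overlapped for all 28, where 0.00823% of all tested genes were higher and 0.0247% lower without overlap.

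The particles were then set against each other. After adjustment 0 of 28 members passed in limma, against 0.0658% of all tested genes, or with the block, against 0.617%. At an unadjusted p under 0.05, 2 members passed without the block, against 1.7% of all tested genes, and 4 with it, against 14.3%. AADAC was higher with 5 nm than with 100 nm particles by 0.71 (95% interval 0.10 to 1.32, adjusted p = 1 in limma). AADACP1 was higher by 0.61 (95% interval 0.18 to 1.04, adjusted p = 1 in limma). In both, all 5 nm arrays lay above all 100 nm arrays, as in 1.37% of all tested genes. Higher values with 5 nm in all 3 numbers were found for 3 of 28 members, AADAC, AADACP1 and GSTM2, against 8.04%, and of these GSTM2 had passed the floor only through its 5 nm arrays. GSTK1 was lower by -0.23 and GSTA4 by -0.23, with overlapping groups. This comparison shares its 5 nm arrays with the first.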

How the data were processed

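Total RNA (300 ng per array) from EA.hy926 cells was labelled as cDNA and read on 9 Affymetrix whole-transcript arrays, per the labels' protocols. The authors deposited a log2 intensity for each of 53617 probe sets; the submitters' processing notes name RMA and Affymetrix Expression Console 1.3.1. Neither the genome build nor which arrays were normalized together is stated. The platform annotation named 1 gene for 16098 probe sets and none here for 37519. The probe set with the highest mean stood for a gene. Group means over the 9 arrays were fitted with lmFit and eBayes of limma 3.58.1 (R 4.3.3), leaving 6 residual degrees of freedom; p-values were adjusted by Benjamini-Hochberg over 12155 genes, with a threshold of 0.05; the script was tested on simulated data. The number of arrays limits the precision.

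The replicate numbers pair the arrays: deviations from the group means correlated at 0.762 to 0.967 between arrays of 1 number (9 pairs) and at -0.582 to -0.265 otherwise (18 pairs). A fit with the number as a block, other floors, scalings and probe set rules, an intensity trend and left-out arrays were run as alternatives. Promoters came from RefSeq on GRCh38.p14. Members, lists and the naming rule (members past a threshold, with the largest differences, with 1 sign throughout, the brightest of each family and fixed lists) were chosen with earlier results of these data known.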

Additional observations from a re-analysis of the deposited data

How the results depend on the processing

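Over 32 alternatives the count of members past the threshold stayed at 0 in every comparison, except in the block fit without the 5 nm array of replicate 2, where GSTK1 passed against the controls, as 326 genes did (2.68%), and against 100 nm particles, as 330 genes did (2.71%); with arrays left out the counts were 0 to 1 for both. For 5 nm minus control, AADAC ranged from 0.43 to 0.91 (adjusted p 0.168 to 1 in limma). AADACP1 ranged from 0.47 to 0.71 (0.0907 to 1) and GSTK1 from -0.44 to -0.03 (0.0257 to 1), and all of these kept their sign. GSTM2 ranged from 0.11 to 0.92 (0.232 to 1). It had passed the floor only through its 5 nm arrays, so its range is a description and supports nothing. Of 1302 values of the members reported, 116 changed sign, 0 of them past the threshold. With each array or replicate number left out, the members that changed sign for 5 nm minus control ranged as follows: AADACL3 -0.16 to 0.15, ABCA15P -0.029 to 0.19, ALDH2 -0.20 to 0.23, CES1 -0.21 to 0.22, CES1P1 -0.30 to 0.20, GSTA1 -0.051 to 0.33, GSTA4 -0.50 to 0.17, GSTA5 -0.13 to 0.43, GSTM1 -0.15 to 0.10, GSTM2P1 -0.20 to 0.25, GSTM4 -0.15 to 0.16. Further ranges were GSTO1 -0.083 to 0.33, GSTO2 -0.12 to 0.34, GSTP1 -0.32 to 0.24, GSTT2 -0.52 to 0.093, GSTT2B -0.34 to 0.035, GSTT4 -0.49 to 0.19, MGST1 -0.12 to 0.12, MGST2 -0.41 to 0.076 and MGST3 -0.32 to 0.29. For 100 nm minus control they were AADAC -0.24 to 0.20, AADACP1 -0.13 to 0.050, CES1P1 -0.46 to 0.053, GSTA1 -0.051 to 0.33, GSTK1 -0.19 to 0.20, GSTM2 -0.25 to 0.57, GSTM4 -0.32 to 0.16, GSTO2 -0.48 to 0.066 and GSTT2 -0.12 to 0.30. For 5 nm minus 100 nm, GSTA4 ranged from -0.51 to 0.12. With each array centred on its median, AADACL3 was 0.026, GSTM1 0.011, GSTM4 0.028 and MGST3 0.018 for 5 nm minus control, and after quantile normalization CES1 was -0.013. GSTT1, with identical values in all groups of each number, also ranged from -0.19 to 0.19 for 5 nm minus control with arrays left out. The cause of these changes was not tested.

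Over all genes, 9 passed for 5 nm minus control and 8 for 5 nm minus 100 nm. These became 79 and 75 with the replicate block, 0 and 0 with the block on the 2 groups alone, 15 and 15 at a floor of 6, and 19 and 21 after quantile normalization over 9 arrays. With arrays left out they ranged from 0 to 446 and from 0 to 449, the highest in the block fit without the 5 nm array of replicate 3, and from 0 to 1 for 100 nm minus control, which stood at 0. Leaving out all arrays of a number was chosen after seeing the data. The cause of these shifts was not tested.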

Other observations

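In the RefSeq gene table AADACP1, AADAC and SUCNR1 follow one another on chromosome 3, after AADACL2. SUCNR1, the receptor for succinate, was looked up after its neighbours' values were seen. It read 5.94, 6.44 and 7.81 on the 5 nm arrays, against 5.16, 4.89 and 5.36 on the control arrays in replicates 1, 2 and 3. The 5 nm arrays all lay above the control arrays, as in 1.41% of all tested genes. The mean difference was 1.59 (95% interval 0.66 to 2.52, adjusted p = 0.745 in limma and 0.151 with the replicate block). Its control arrays lay near the floor of 5, so the size is uncertain. On the 100 nm arrays it read 5.10, 5.01 and 5.75. MBNL1, the next named gene further on, differed by 0.05, 0.03 and 0.05 with 5 nm particles, and AADACL2 lay under the floor on all arrays. The long noncoding RNA AADACL2-AS1 overlaps AADAC in that table and was not analysed here, so its part in the AADAC signal was not tested.

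Among 8 tested receptors and electron donors of the P450 system, none passed in limma without or with the block. TIPARP, a target of the dioxin receptor AHR, differed by 0.26, 0.85 and 0.18 with 5 nm particles. CYB5A, cytochrome b5, which passes electrons to cytochromes P450, differed by -0.23, -0.19 and -0.34, and CYB5B by -0.13, -0.10 and -0.08. Higher in all 3 numbers was 1 of the 8, TIPARP, against 8.03% of all tested genes. Lower in all 3 were 2, CYB5A and CYB5B, against 13.4%. AHR itself differed by -0.03, 0.03 and 0.01.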
